A study of Mus musculus with 9 samples.

Results

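The mRNA levels of 10 genes of the chondroitin sulfate proteoglycan matrix and of perineuronal nets were examined in the contused mouse spinal cord, out of 52550 genes counted. The genes were listed by symbol for their known place in this matrix, and each was matched to 1 Ensembl identifier of the count table. They comprised the 4 lecticans (Acan, Bcan, Ncan and Vcan), the membrane-spanning proteoglycans Cspg5 and Ptprz1, the tenascins Tnr and Tnc, and the link protein genes Hapln1 and Hapln4. All 10 passed the filter on low counts and were tested.

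Adult female C57BL/6N mice were assigned to 3 groups with 3 mice in each, 9 mice in all. Sham mice underwent laminectomy alone. SCI mice received a contusion of the thoracic cord with an impactor and then intraperitoneal DMSO, the vehicle. SCI+FIPI mice received the same contusion and then daily intraperitoneal FIPI, an inhibitor of phospholipase D, and whether Sham mice were injected is not stated in the sources used here. RNA was taken on day 7 from the cord segment around the injury, so that each value is an average over neurons, glia, meninges, vessels and infiltrating cells.

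Lecticans are secreted core proteins that carry chondroitin sulfate chains. One end of a lectican binds the polysaccharide hyaluronan, where a link protein stabilizes the contact, and the other end can bind tenascins, so that the members assemble into a common scaffold. Condensed around the cell body and proximal dendrites of certain neurons, among them parvalbumin interneurons and spinal motor neurons, this scaffold forms the perineuronal net. After injury to the cord, lecticans and tenascin-C accumulate in the scar, and their chondroitin sulfate chains are known to restrain axon growth. Chain length, sulfation and protein deposition cannot be read from mRNA counts.

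The counts of the 9 mice summed to between 20806000 and 24582377, and the scaling factors lay between 0.985 and 1.02. Reads on the members ranged from 80 (Hapln1, SCI mouse 3) to 11511 (Bcan, Sham mouse 3). Levels are given as CPM, reads scaled to a common library total. Markers of mature oligodendrocytes summed to 32710 to 34280 CPM in Sham mice and markers of motor neurons to 183 to 255 CPM, so that both defining cell types of the cord were present. A gene was called higher or lower when its log2 fold change was at least 0.5 in size and its adjusted p-value, from the edgeR quasi-likelihood test with Benjamini-Hochberg adjustment over all 18699 genes tested, was under 0.05. All adjusted p-values below are from this test.

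The promoter sequences of the genes called after injury are shown here for context, since Tnc, Vcan and Ncan moved up together while Ptprz1 and Hapln1 moved down. Each is the 300 bases around a RefSeq start site on GRCm38.p6, 250 before it and 50 after it, read 5′ to 3′ on the strand of the gene. Capitals mark matches on either strand to the letters of a TATA box (TATAAA), a GC box (GGGCGG) or a CCAAT box (CCAAT).
Tnc, chr4:64046966-64047265, reverse strand: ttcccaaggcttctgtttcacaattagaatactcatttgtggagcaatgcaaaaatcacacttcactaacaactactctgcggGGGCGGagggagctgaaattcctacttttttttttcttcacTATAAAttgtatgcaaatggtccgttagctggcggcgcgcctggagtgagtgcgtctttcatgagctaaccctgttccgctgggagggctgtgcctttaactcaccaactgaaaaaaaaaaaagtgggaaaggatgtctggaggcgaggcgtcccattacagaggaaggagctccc
Vcan, chr13:89742463-89742762, reverse strand: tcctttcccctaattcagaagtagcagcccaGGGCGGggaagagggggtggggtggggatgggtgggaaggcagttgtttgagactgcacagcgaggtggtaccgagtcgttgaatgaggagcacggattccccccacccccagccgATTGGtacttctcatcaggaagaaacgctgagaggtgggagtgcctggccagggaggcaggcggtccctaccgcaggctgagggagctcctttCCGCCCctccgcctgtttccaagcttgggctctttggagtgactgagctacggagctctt
Ncan, chr8:70120795-70121094, reverse strand: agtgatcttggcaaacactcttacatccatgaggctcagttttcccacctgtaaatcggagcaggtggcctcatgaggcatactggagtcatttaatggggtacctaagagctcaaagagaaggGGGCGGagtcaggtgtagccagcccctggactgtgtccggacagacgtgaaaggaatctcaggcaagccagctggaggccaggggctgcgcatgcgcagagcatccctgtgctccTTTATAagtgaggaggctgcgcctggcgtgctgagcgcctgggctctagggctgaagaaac
Ptprz1, chr6:22875252-22875551, forward strand: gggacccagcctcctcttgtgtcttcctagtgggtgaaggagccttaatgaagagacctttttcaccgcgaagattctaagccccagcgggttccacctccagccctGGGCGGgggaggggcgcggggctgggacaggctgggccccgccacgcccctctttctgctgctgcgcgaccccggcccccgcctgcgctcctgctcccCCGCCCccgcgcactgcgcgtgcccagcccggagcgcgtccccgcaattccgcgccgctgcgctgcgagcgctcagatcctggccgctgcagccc
Hapln1, chr13:89540386-89540685, forward strand: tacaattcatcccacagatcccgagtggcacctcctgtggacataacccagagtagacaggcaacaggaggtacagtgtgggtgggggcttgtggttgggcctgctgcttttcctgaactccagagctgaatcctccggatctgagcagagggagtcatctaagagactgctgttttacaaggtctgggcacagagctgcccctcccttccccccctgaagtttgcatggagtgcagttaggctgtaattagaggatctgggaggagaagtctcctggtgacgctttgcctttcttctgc
The Tnc entry is the upstream one of 2 start sites listed for that gene. RefSeq entries were at hand for 8 of the 10 members, with 9 windows, and not for Cspg5 and Hapln4. The windows of Tnc overlap and share the same matches, so that members are counted by gene here. TATAAA was found for 2 of the 8 members (Tnc and Ncan), and in 13.6% of all 32851 promoter windows. In the windows shown it began at position -126 for Tnc and -11 for Ncan, relative to the start site. Whether any match works as a promoter element was not tested. GGGCGG was found for 6 of the 8, beside 35.7% of all windows, CCAAT for 3 of the 8, beside 37.4%, and the windows of Tnr and Hapln1 held none of the motifs searched. The letters of an AP-1 site (TGANTCA) and of a STAT site (TTCNNNGAA) were found for 0 of the 8, beside 7.81% and 8.3% of all windows. The GC box was held by the windows of the 3 genes that rose and by that of Ptprz1, which fell.

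**Figure D1:**
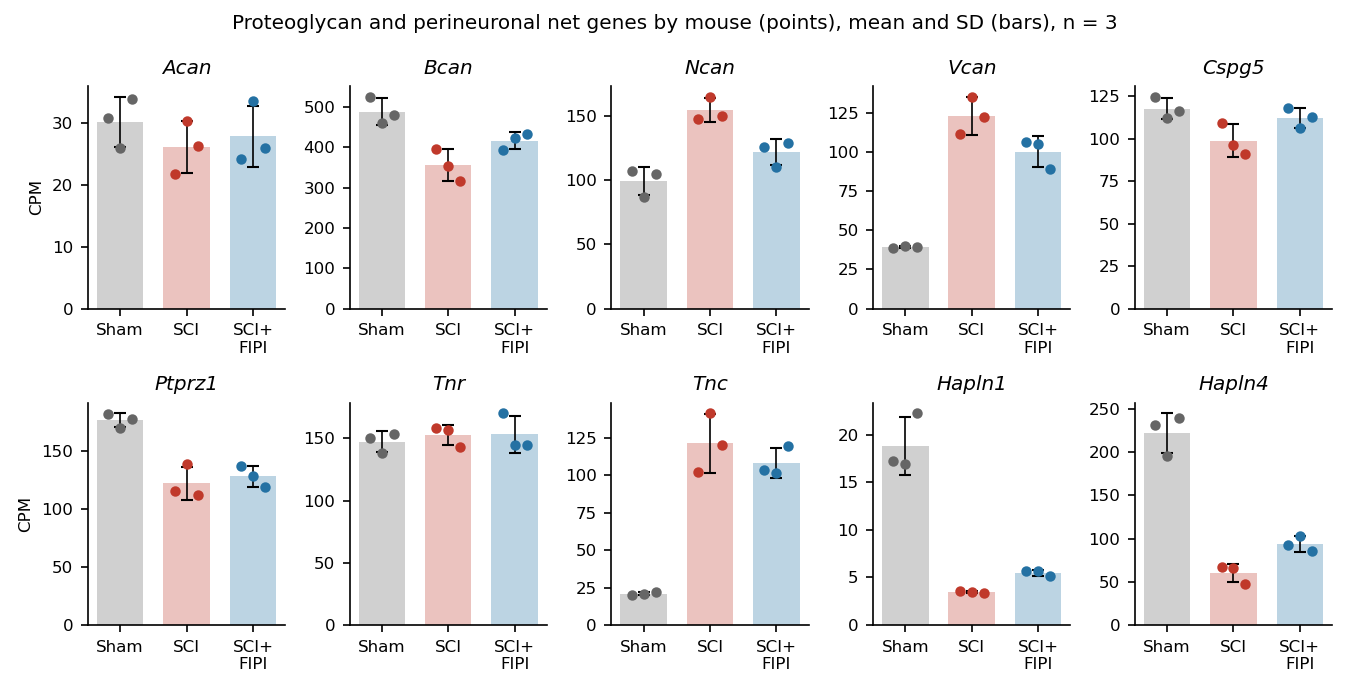
Scaled read counts (CPM, vertical axis) of the 10 members in each mouse. Points are mice, bars are group means and whiskers are SD (n = 3 per group); Vcan and Tnc lay higher in all injured mice than in all Sham mice, and Hapln1 and Hapln4 lay lower. SCI+FIPI mice lay between the other groups for Vcan, Ncan, Hapln1 and Hapln4.

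After contusion the members diverged. Tnc rose 5.8-fold, Vcan 3.13-fold and Ncan 1.55-fold, whereas Hapln1 fell to 0.185 of its Sham level, Hapln4 to 0.272 and Ptprz1 to 0.691. Bcan, Cspg5, Acan and Tnr did not pass both limits. Thus 3 of the 10 members were called higher and 3 lower, 6 in all. Over all genes tested 47% were called in this comparison, 24.4% higher and 22.5% lower, so that the share of members called was close to that of genes at large. The median log2 fold change of the members was -0.23, beside -0.003 for all genes tested. The 3 SCI mice and the 3 Sham mice did not overlap for 8 members, 3 higher and 5 lower, beside 70.5% of all genes tested, 35.6% higher and 35% lower. By adjusted p alone 8 members passed, beside 65.9% of all genes.

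SCI+FIPI and SCI mice differed in fewer members. Hapln1 was 1.58-fold and Hapln4 1.55-fold higher in SCI+FIPI than in SCI mice, and these 2 members were called, both higher, and 0 lower. Over all genes 3.06% were called, 2.36% higher and 0.695% lower. Ncan and Vcan lay lower in every SCI+FIPI mouse than in every SCI mouse but by less than the fold limit. The groups did not overlap for 4 members, 2 higher and 2 lower, beside 30.2% of all genes, 15.7% higher and 14.5% lower. By adjusted p alone the same 4 members passed, beside 9.63% of all genes. The SCI mice enter both this comparison and that with Sham, so that a high or low value in an SCI mouse moves the fold changes of both in opposite directions. Between SCI+FIPI and Sham mice, 4 members were called, Vcan and Tnc higher and Hapln1 and Hapln4 lower, beside 38.1% of all genes, 21.2% higher and 17% lower. The groups did not overlap for 7 members, beside 66.3% of all genes (33.4% higher and 32.9% lower), and 7 passed by adjusted p alone, beside 59.1%.

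**Figure D2:**
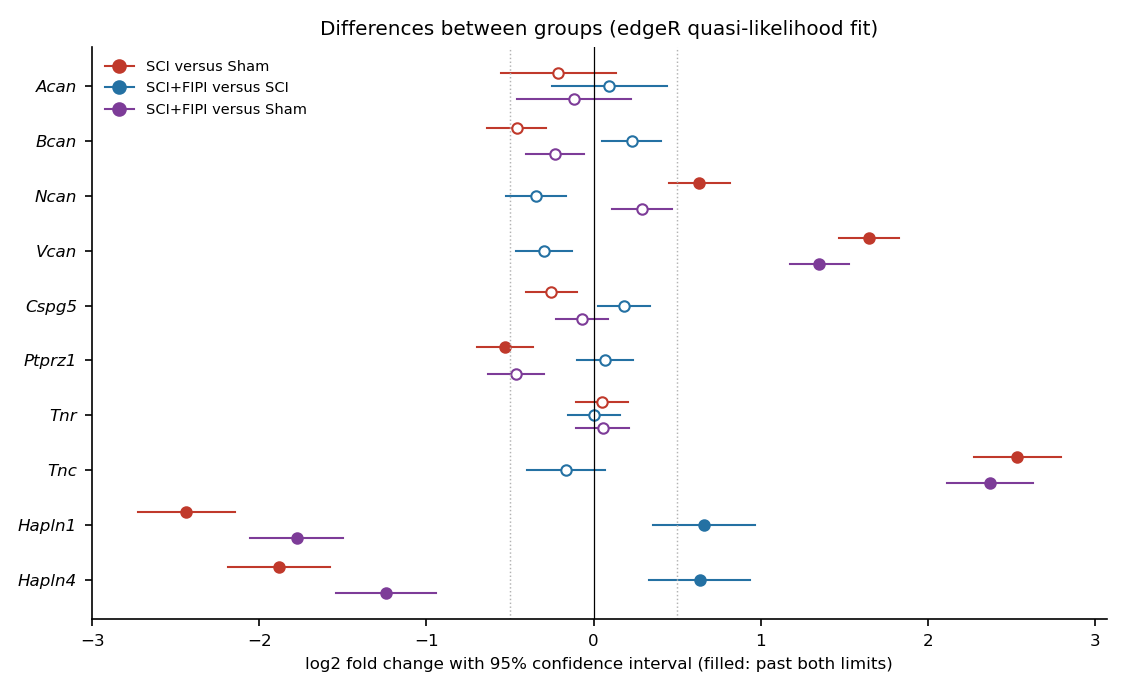
Log2 fold change (horizontal axis) of each member in 3 comparisons, with 95% confidence intervals from the edgeR fit. Filled points passed both limits and dotted lines mark log2 fold changes of -0.5 and 0.5; the fold changes ran from -2.44 (Hapln1) to 2.54 (Tnc) between SCI and Sham and from -0.34 (Ncan) to 0.66 (Hapln1) between SCI+FIPI and SCI.

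Versican (Vcan, ENSMUSG00000021614, chr13:89655312-89742509 on the reverse strand) is the lectican of loose matrix, made by oligodendrocyte precursors and by mesenchymal cells. Its level was 38.37, 39.87 and 39.49 CPM in Sham mice, 111.3, 135.3 and 122.4 CPM in SCI mice, and 106.6, 105.1 and 88.88 CPM in SCI+FIPI mice. Every injured mouse lay above every Sham mouse, and each SCI+FIPI mouse lay below each SCI mouse. SCI against Sham mice gave a log2 fold change of 1.65 ± 0.083 (SE, adjusted p = 6.6e-10). It was -0.30 ± 0.079 (adjusted p = 0.0314) for SCI+FIPI against SCI, which is under the fold limit. Counts per gene cannot tell the splice forms of Vcan apart.

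Neurocan (Ncan, ENSMUSG00000002341, chr8:70093085-70120873, reverse strand) is a lectican of the nervous system made by astrocytes and neurons. It measured 107.1, 87.07 and 104.6 CPM in Sham mice, 147.9, 165.2 and 150.3 CPM in SCI mice, and 125.9, 110.2 and 129.1 CPM in SCI+FIPI mice. The 3 groups did not overlap, and SCI+FIPI mice lay between the others. Its log2 fold change was 0.63 ± 0.084 (SE, adjusted p = 1.22e-05) after injury and -0.34 ± 0.084 (adjusted p = 0.0218) with FIPI, the latter under the fold limit. When the fit was corrected for the GC content and length of genes, which moved the median log2 fold change of all genes to -0.135, the value after injury was 0.46 and the call was lost.

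Brevican (Bcan, ENSMUSG00000004892, chr3:87987531-88000230, reverse strand), a short lectican of mature glia and nets, had the highest level of the members per length of exon. Its level was 526.4, 459.6 and 481.0 CPM in Sham mice, 395.9, 354.1 and 317.2 CPM in SCI mice, and 393.0, 423.7 and 433.6 CPM in SCI+FIPI mice. All SCI mice lay below all Sham mice, while SCI and SCI+FIPI mice overlapped. Injury gave a log2 fold change of -0.46 ± 0.082 (SE, adjusted p = 0.000167), just short of the fold limit. It passed that limit with the GC content and length offsets (-0.63), without Sham mouse 2 (-0.503) and without SCI mouse 1 (-0.544). With FIPI it was 0.23 ± 0.082 (adjusted p = 0.0933).

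Aggrecan (Acan, ENSMUSG00000030607, chr7:79053483-79115099, forward strand) is the defining lectican of perineuronal nets and the main proteoglycan of cartilage. It measured 30.85, 25.87 and 33.89 CPM in Sham mice, 21.76, 30.27 and 26.24 CPM in SCI mice, and 24.09, 33.48 and 25.92 CPM in SCI+FIPI mice. All 3 groups overlapped. The log2 fold change after injury was -0.21 with a 95% interval from -0.56 to 0.13 (adjusted p = 0.253), and with FIPI it was 0.09, with an interval from -0.25 to 0.44 (adjusted p = 0.765). Per 1000 CPM of summed neuron markers, Acan was at 4.22 ± 0.38 CPM (SD, n = 3) in Sham, 10.9 ± 2.9 in SCI and 7.82 ± 0.74 in SCI+FIPI mice. SCI lay above Sham mice with no overlap (exact permutation p = 0.1), and SCI and SCI+FIPI mice overlapped (exact permutation p = 0.3). The neuron marker sum itself was lower after injury, with a mean of 7137 CPM in Sham and 2454 CPM in SCI mice. Per neuron markers every member except Hapln1 and Hapln4 was higher in SCI than in Sham mice. Per 1000 CPM of astrocyte markers Acan was lower, at 3.045 in Sham and 1.83 in SCI mice. Without the marker Gfap in that sum the groups overlapped (5.215 and 5.58). Against oligodendrocyte precursor markers Acan was also lower, at 35.2 in Sham and 25.1 in SCI mice. Of 12 cartilage markers, 7 were called higher after injury, and 1, Col10a1, lower in SCI+FIPI than in SCI mice, and their sum was 151 to 166 CPM in Sham, 316 to 335 CPM in SCI and 263 to 278 CPM in SCI+FIPI mice. Without Col10a1, the gene of hypertrophic cartilage, the sum was 247 to 269 CPM in SCI and 248 to 273 CPM in SCI+FIPI mice and overlapped, so that the gap between these groups was that of 1 gene. Among the defining genes of the tissue Col2a1 was at 5.77 to 7.95 CPM in Sham and 9.56 to 11.6 CPM in SCI mice, and Matn1 was at 0.591 to 1.17 CPM over the 9 mice. The part of cartilage RNA in the level of Acan was not tested.

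**Figure D3:**
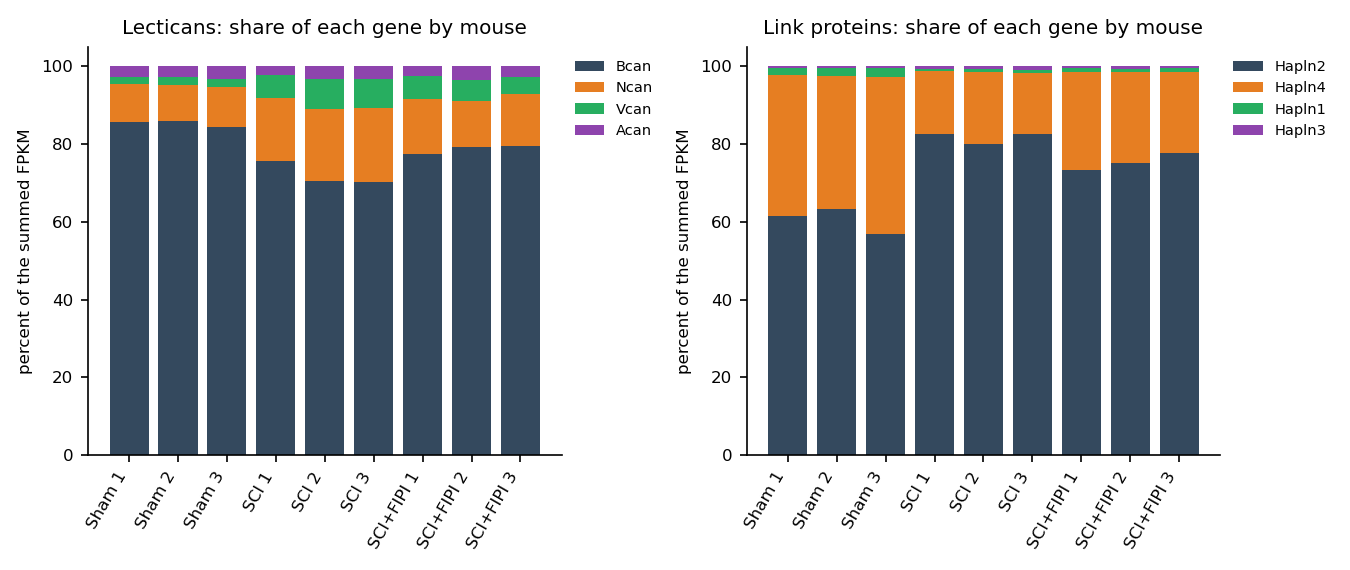
Share of each gene (percent, vertical axis) in the summed length-scaled level (FPKM) of the 4 lecticans (left) and of the 4 link protein genes (right) in each of the 9 mice. Bcan filled 84.4 to 86.1% of the lectican level in Sham mice and 70.4 to 75.8% in SCI mice, and Hapln4 filled 34.3 to 40.4% and 15.8 to 18.5% of the link protein level.

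Levels of different genes were compared as FPKM, which divides the scaled count by the exonic length. In Sham mice the means in descending order were 120.3 for Bcan, 56.5 for Hapln4, 13.8 for Ncan, 12.4 for Ptprz1, 11.7 for Cspg5, 11.5 for Tnr, 4.04 for Acan, 3.19 for Hapln1, 2.71 for Vcan and 2.69 for Tnc. Neighbours from Ncan to Tnr overlapped between mice, as did Acan with Hapln1, and Vcan with Tnc. The order also rests on the exonic lengths used, in which all splice forms are merged. This length was 14245 bases for Ptprz1 and 10074 for Cspg5, against 8068 and 7868 in their longest transcripts. For Ncan both lengths were 7195 bases, so that the order of these genes depends on the length chosen. In SCI mice Bcan (87.5) was followed by Ncan (21.5), Tnc (15.6) and Hapln4 (15.4), and the latter pair overlapped. Hapln1 was at the bottom of the order in SCI mice with 0.588 ± 0.016 FPKM (SD, n = 3) and in SCI+FIPI mice with 0.931 ± 0.055 FPKM.

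The shares of the lecticans in their sum also differed between the groups. Summed lectican FPKM was 140.9 ± 9.9 (SD, n = 3) in Sham, 121.0 ± 9.1 in SCI and 130.1 ± 4.8 in SCI+FIPI mice. The share of Bcan was 85.4% ± 0.84, 72.2% ± 3.1 and 78.8% ± 1.1 in these groups. The share of Vcan was 1.93% ± 0.17, 7.06% ± 0.93 and 5.34% ± 0.69, and that of Ncan was 9.81% ± 0.58, 17.8% ± 1.6 and 13.02% ± 1.2. For these 3 shares no 2 groups overlapped, and SCI+FIPI mice lay between Sham and SCI mice. The share of Acan was 2.87%, 2.91% and 2.86%, and its groups overlapped. The exact two-sided permutation test gave p = 0.1 for each share of Bcan, Ncan and Vcan in SCI against Sham and in SCI+FIPI against SCI, which is the smallest p that 3 mice against 3 can give.

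Tenascins crosslink the lectican ends and are oligomers, with Tnr typical of the mature oligodendrocyte lineage and of nets and Tnc typical of development, wounds and reactive astrocytes. Tnc (ENSMUSG00000028364, chr4:63959785-64047015, reverse strand) measured 19.78, 20.99 and 22.02 CPM in Sham mice, 102.1, 141.7 and 120.7 CPM in SCI mice, and 103.7, 101.4 and 120.0 CPM in SCI+FIPI mice. All injured mice lay far above all Sham mice. After injury Tnc rose by a log2 fold change of 2.54 ± 0.12 (SE, adjusted p = 5.51e-09). With FIPI it was -0.16, with a 95% interval from -0.40 to 0.07 (adjusted p = 0.374), and the SCI and SCI+FIPI mice overlapped. A gene on the opposite strand, 8030451A03Rik, overlaps 176 bases of the Tnc exons, and whether counting used the strand is not stated.

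Tnr (ENSMUSG00000015829, chr1:159523769-159931729, forward strand) was 150.6, 138.0 and 153.8 CPM in Sham mice, 158.0, 156.6 and 143.4 CPM in SCI mice, and 170.3, 144.3 and 144.7 CPM in SCI+FIPI mice. The groups overlapped throughout. For Tnr the log2 fold change was 0.05 with a 95% interval from -0.11 to 0.21 (adjusted p = 0.565) after injury and 0.00 with an interval from -0.15 to 0.16 (adjusted p = 0.982) with FIPI. The ratio of Tnc to Tnr FPKM was 0.236 ± 0.017 (SD, n = 3) in Sham, 1.32 ± 0.22 in SCI and 1.18 ± 0.18 in SCI+FIPI mice. In FPKM, Tnr was the higher of the pair in every Sham mouse and Tnc in every injured mouse. The ratio was close to even in SCI+FIPI mouse 1 (1.009) and SCI mouse 1 (1.07). The order in injured mice rests on the exonic lengths used, since in CPM Tnr was the higher in every mouse. On the log2 scale the ratio differed by 2.48 between SCI and Sham (exact permutation p = 0.1) and by -0.16 between SCI+FIPI and SCI (exact permutation p = 0.4).

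Ptprz1 (ENSMUSG00000068748, chr6:22875502-23052916, forward strand) encodes a receptor-type tyrosine phosphatase of glial progenitors and astrocytes, whose secreted ectodomain is the proteoglycan phosphacan. It measured 182.3, 170.3 and 177.8 CPM in Sham mice, 115.8, 138.6 and 112.3 CPM in SCI mice, and 136.9, 128.3 and 119.4 CPM in SCI+FIPI mice. All injured mice lay below all Sham mice, while SCI and SCI+FIPI mice overlapped. For Ptprz1 the log2 fold change was -0.53 ± 0.078 (SE, adjusted p = 2.63e-05) after injury and 0.07 ± 0.078 (adjusted p = 0.638) with FIPI. The call after injury stood close to the fold limit and was lost without SCI mouse 1 (-0.496), without SCI mouse 3 (-0.471) and with the GC content and length offsets (-0.30).

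Cspg5 (ENSMUSG00000032482, chr9:110243783-110262576, forward strand), also named neuroglycan C, is a membrane proteoglycan with an EGF-like domain made by neurons and glia. It was 124.7, 112.2 and 116.1 CPM in Sham mice, 109.3, 96.26 and 90.79 CPM in SCI mice, and 117.7, 106.1 and 112.8 CPM in SCI+FIPI mice. SCI mice lay below Sham mice, and SCI+FIPI mice overlapped both groups. The log2 fold change was -0.25 ± 0.073 (SE, adjusted p = 0.00671) after injury and 0.18 ± 0.073 (adjusted p = 0.127) with FIPI, both under the fold limit.

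Link proteins hold lecticans to hyaluronan, Hapln1 in nets and cartilage and Hapln4 in nets and at perisynaptic matrix of the central nervous system. Hapln1 (ENSMUSG00000021613, chr13:89539796-89611652, forward strand) measured 17.2, 16.93 and 22.27 CPM in Sham mice, 3.564, 3.473 and 3.375 CPM in SCI mice, and 5.722, 5.637 and 5.117 CPM in SCI+FIPI mice. The 3 groups did not overlap. These levels rest on 359 to 533 reads in Sham, 80 to 85 in SCI and 122 to 133 in SCI+FIPI mice. The log2 fold change was -2.44 ± 0.14 (SE, adjusted p = 1.34e-09) after injury, 0.66 ± 0.14 (adjusted p = 0.0126) with FIPI, and -1.78 ± 0.13 (adjusted p = 3.95e-08) for SCI+FIPI against Sham.

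Hapln4 (ENSMUSG00000007594, chr8:70083457-70090862, forward strand) measured 231.0, 195.2 and 238.9 CPM in Sham mice, 66.51, 66.28 and 47.93 CPM in SCI mice, and 91.95, 103.1 and 85.86 CPM in SCI+FIPI mice. Here too the 3 groups did not overlap, and SCI mouse 3 was the lowest mouse. The log2 fold change was -1.88 ± 0.14 (SE, adjusted p = 9.84e-07) after injury, 0.64 ± 0.13 (adjusted p = 0.0208) with FIPI and -1.24 ± 0.13 (adjusted p = 2.56e-05) for SCI+FIPI against Sham. The calls with FIPI depended on single mice. Without SCI+FIPI mouse 2 neither gene was called (Hapln1 0.64, adjusted p = 0.0628; Hapln4 0.56, adjusted p = 0.0862). Without SCI mouse 3 the log2 fold change of Hapln4 was 0.495 and under the fold limit, and without SCI+FIPI mouse 1 it was 0.65 with an adjusted p of 0.05 after rounding, just over the limit. Hapln1 stayed called in both of these cases, which leaves 1 member called.

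Among the link protein genes, Hapln2, which belongs to the node of Ranvier, and Hapln3 were not members and are given for the balance. The summed FPKM of the 4 genes was 152.5 ± 8.4 (SD, n = 3) in Sham, 91.2 ± 14 in SCI and 103.0 ± 9.7 in SCI+FIPI mice. All injured mice lay below all Sham mice for this sum. The share of Hapln4 in it was 37.0% ± 3.1 in Sham, 16.8% ± 1.5 in SCI and 23.2% ± 2.2 in SCI+FIPI mice. The share of Hapln1 was 2.10% ± 0.36, 0.654% ± 0.083 and 0.910% ± 0.12. Hapln2 took up the complement, with 60.5% ± 3.3, 81.8% ± 1.5 and 75.4% ± 2.3. Its own level did not rise after injury, with a log2 fold change of -0.31 (adjusted p = 0.034). For these 3 shares the SCI+FIPI mice lay between the other groups with no overlap (exact permutation p = 0.1 for SCI against Sham and for SCI+FIPI against SCI). The log2 ratio of Hapln1 to Hapln4 FPKM was -4.16 ± 0.17 in Sham and -4.69 ± 0.24 in SCI mice with no overlap, a difference of -0.54 (exact permutation p = 0.1). Between SCI+FIPI and SCI mice this ratio differed by 0.01 (exact permutation p = 0.9).

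Each link protein gene lies beside a lectican gene in the mouse genome, an arrangement described for vertebrates. In the annotation of GRCm38 the ends of Vcan and Hapln1 face each other across 43659 bases of chr13, the ends of Ncan and Hapln4 across 2222 bases of chr8, and the ends of Acan and Hapln3 across 2 bases of chr7. Bcan and Hapln2 lie 21519 bases apart on the same strand of chr3. No annotated gene lay between the partners of any pair. In 2 of the 4 pairs the partners were called in opposite directions after injury, since Vcan rose (1.65) where Hapln1 fell (-2.44) and Ncan rose (0.63) where Hapln4 fell (-1.88). The log2 fold changes of Bcan (-0.46, adjusted p = 0.000167) and Hapln2 (-0.31, adjusted p = 0.034) had the same sign, and neither passed the fold limit. Those of Acan (-0.21, adjusted p = 0.253) and Hapln3 (0.33, adjusted p = 0.234) did not pass the limit on p. In SCI+FIPI against SCI mice the signs within the pairs of Vcan and Ncan were again opposite, with log2 fold changes of -0.30 for Vcan and 0.66 for Hapln1, and of -0.34 for Ncan and 0.64 for Hapln4.

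The markers of the cell types that make these molecules differed between the groups as well. In bulk RNA, fewer cells of a type and less RNA per cell cannot be told apart. All 10 neuron markers were called lower after injury (median log2 fold change -1.68), and 7 of the 10 were called higher with FIPI (median 0.56). Their sum was 6649 to 7461 CPM in Sham, 2025 to 2856 CPM in SCI and 3309 to 3912 CPM in SCI+FIPI mice. Astrocyte markers summed to 9748 to 10250, 13080 to 15050 and 13570 to 14240 CPM, with 3 of 8 called higher, among them Gfap, and 3 lower, Slc1a2, Aldoc and Fgfr3, after injury. Gfap, the filament gene of reactive astrocytes, rose from 3913 to 4453 CPM in Sham to 8818 to 10020 CPM in SCI mice, and without it the sum was 5708 to 5857, 4264 to 5023 and 4868 to 5155 CPM. Markers of oligodendrocyte precursors summed to 807 to 921, 995 to 1124 and 930 to 1026 CPM, with 4 of 8 called higher. Fibroblast and pericyte markers, 8 of 8 higher, summed to 460 to 1039, 9103 to 12390 and 8407 to 10800 CPM. Microglia and macrophage markers, 8 of 8 higher, summed to 398 to 573, 6578 to 8036 and 4842 to 6195 CPM.

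**Figure D4:**
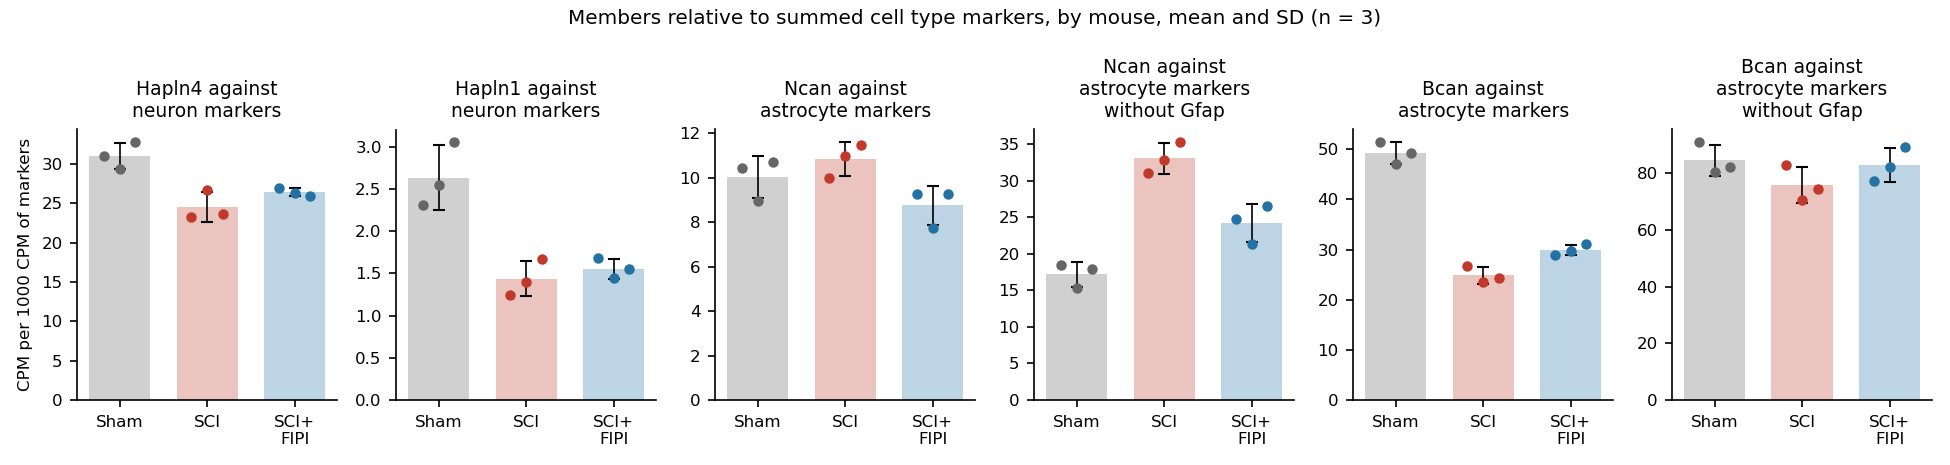
CPM of Hapln4, Hapln1, Ncan and Bcan per 1000 CPM of summed markers of the named cell type (vertical axis), for astrocytes with and without Gfap in the sum. Points are mice, bars are means and whiskers are SD (n = 3 per group); for Hapln4 and Hapln1 the SCI and SCI+FIPI mice overlap, and the separation of Bcan (24.9 in SCI against 49.3 in Sham) is lost without Gfap, while Ncan separates only without it after injury.

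Some members were also set against these sums. Hapln4 was at 31.0 ± 1.7 CPM per 1000 CPM of neuron markers (SD, n = 3) in Sham, 24.6 ± 1.9 in SCI and 26.4 ± 0.52 in SCI+FIPI mice. It was lower after injury with no overlap (exact permutation p = 0.1), whereas SCI and SCI+FIPI mice overlapped (exact permutation p = 0.3). Hapln1 was at 2.63 ± 0.38, 1.44 ± 0.21 and 1.56 ± 0.12, likewise with no overlap after injury and with overlap between SCI and SCI+FIPI mice (exact permutation p = 0.4). The neuron markers moved in the same direction as both link protein genes in both comparisons, and their part in the result was not tested.

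Ncan was at 10.03 ± 0.96 CPM per 1000 CPM of astrocyte markers in Sham and 10.8 ± 0.76 in SCI mice, with overlap (exact permutation p = 0.4), and at 8.76 ± 0.88 in SCI+FIPI mice, below all SCI mice (exact permutation p = 0.1). This result depended on Gfap: without it in the sum, Ncan was at 17.2 ± 1.7 in Sham, 33.1 ± 2.1 in SCI and 24.2 ± 2.6 in SCI+FIPI mice, with no overlap between any of the groups. Bcan was at 49.3 ± 2.1, 24.9 ± 1.7 and 29.9 ± 1.1 with Gfap in the sum, with no overlap, but at 84.5 ± 5.6, 75.95 ± 6.4 and 82.8 ± 6.0 without it, where the groups overlapped (exact permutation p = 0.3 for SCI against Sham and for SCI+FIPI against SCI). With Gfap included, Tnc was at 2.11 ± 0.17 in Sham, 8.52 ± 1.4 in SCI and 7.79 ± 0.75 in SCI+FIPI mice, with all injured mice above all Sham mice (exact permutation p = 0.1), as was also the case without Gfap. Vcan was at 46.0 ± 3.9 CPM per 1000 CPM of precursor markers in Sham, 117.9 ± 17 in SCI and 103.2 ± 15 in SCI+FIPI mice, and the 2 injured groups overlapped (exact permutation p = 0.4). Ptprz1 was at 206.6 ± 7.4, 116.9 ± 16 and 132.0 ± 15 on that scale. These ratios depend on which genes stand for a cell type, and Vcan and Tnc are made by several of the types named.

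**Figure D5:**
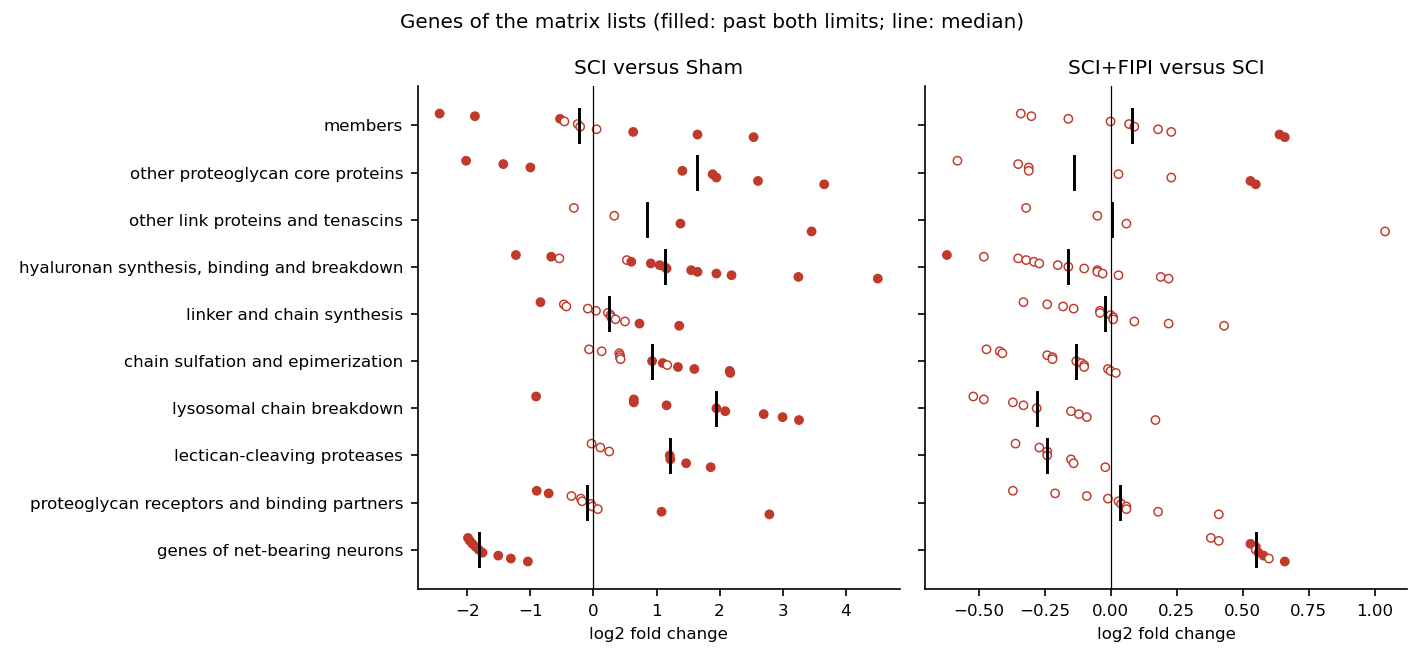
Log2 fold change (horizontal axis) of each gene in the 10 lists, members first, for SCI against Sham (left) and SCI+FIPI against SCI (right). Filled points passed both limits and black lines are medians; the genes of net-bearing neurons lie left of 0 after injury (median -1.82) and right of 0 with FIPI (median 0.55).

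The other genes of the pathway were taken from 9 lists. Their counts after injury stand beside 47% of all genes called, 24.4% higher and 22.5% lower. Those for SCI+FIPI against SCI mice stand beside 3.06%, 2.36% higher and 0.695% lower. Genes of the neurons that carry nets had the same directions as Hapln1 and Hapln4. After injury 9 of 9 were called lower, among them Slc5a7 (-1.99), the choline transporter of motor neurons, and the fast potassium channel gene Kcnc2 (-1.92). In SCI+FIPI against SCI mice 5 of 9 were called higher and 0 lower, among them the calcium buffer gene Pvalb (0.66, adjusted p = 0.00243) and Kcnc1 (0.58, adjusted p = 0.0084). Pvalb measured 86.6 ± 5.9 CPM (SD, n = 3) in Sham, 23.7 ± 3.3 in SCI and 37.5 ± 2.7 in SCI+FIPI mice. Slc5a7 was not called with FIPI (0.55, adjusted p = 0.116), nor were any of the 6 motor neuron markers by the edgeR test. The log2 fold changes of these 6 ran from 0.06 to 0.68, with a median of 0.48. DESeq2 called 2 of the 6 and limma-voom 0. Of the 9 genes of net-bearing neurons DESeq2 called 7 and limma-voom 5. The general neuron markers had the same directions, with 10 of 10 called lower after injury and 7 of 10 higher with FIPI. The pattern was thus not particular to net-bearing neurons.

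Of 8 further core proteins, 5 were called higher and 3 lower after injury. Bgn (3.66, adjusted p = 2e-05), the small proteoglycan biglycan of connective tissue, and Srgn (2.61, adjusted p = 8.75e-06), the serglycin of leukocyte granules, led the rises. Spock3 (-2.02, adjusted p = 1.26e-10), a testican of neurons, was the strongest of the falls. With FIPI, Spock3 (0.55, adjusted p = 0.00307) and Spock1 (0.53, adjusted p = 0.0059) were called higher and 0 of the 8 lower. Of the 4 further link proteins and tenascins, Tnn (3.46, adjusted p = 0.00954) and Tnxb (1.38, adjusted p = 0.013) were called higher after injury, while limma-voom called 1 of the 4. Tnn, also named tenascin-W, was at 0.479 to 0.648 CPM in Sham, 3.29 to 9.84 CPM in SCI and 4.43 to 20.3 CPM in SCI+FIPI mice, a wide spread at a low level.

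Hyaluronan, the backbone to which the link proteins bind, is made by Has enzymes at the cell membrane. Of 15 genes of its synthesis, binding and breakdown, 11 were called higher and 2 lower after injury. Stab1 (4.51), a scavenger receptor of macrophages and sinusoidal endothelium, and Hmmr (3.25), a hyaluronan-binding protein of dividing cells, led these, followed by the synthase gene Has2 (2.19). Another synthase gene, Has3, fell by 1.23 on the log2 scale (adjusted p = 6.94e-06), and was singled out after its values were seen. With FIPI, Stab1 was lower (-0.62, adjusted p = 0.0119) and no other gene of the list was called.

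The chondroitin sulfate chain is built on a linker, sulfated in the Golgi and broken down in lysosomes. Of 12 genes of the linker and chain synthesis, 2 were higher, Chsy1 (1.36) and Xylt2 (0.73), and 1 was lower, Chsy3 (-0.84). Of 13 genes of sulfation and epimerization, 6 were higher and 0 lower. With both directions counted, the shares called in these 2 lists were thus near or below that of all genes. In sulfation and epimerization the 6 calls of 13 genes were all rises, beside 24.4% of all genes called higher. The median log2 fold change of that list was 0.93, and its rises had 3 leading genes. Chst14 (2.17) and Dse (2.16), which encode the sulfotransferase and the epimerase that turn chondroitin into dermatan sulfate, led them with Papss2 (1.60), a source of the sulfate donor. Of 9 genes of lysosomal chain breakdown, 8 were higher and 1 lower, led by Gusb (3.26), Galns (3.00) and Hexa (2.70). Of 7 proteases that cleave lecticans, 4 were higher and 0 lower, led by Adamts15 (1.86), Adamts1 (1.47) and Adamts8 (1.22). Adamts8 was at a low level, with means of 0.96 CPM in Sham and 2.23 CPM in SCI mice. Adamts4 (-0.03, adjusted p = 0.72), Adamts5 (0.25, adjusted p = 0.06) and Adamts20 (0.11, adjusted p = 0.39) were not called. Of 10 receptors and binding partners tested, 2 were higher, Rtn4rl2 (2.79) and Egfr (1.08), and 2 were lower, among them the Nogo receptor gene Rtn4r (-0.90). The proteoglycan receptor genes Ptprs and Ptprf were not called, with log2 fold changes of 0.07 and -0.02, and Otx2 had 0 counts in all 9 mice.

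Of these last 5 lists, the edgeR test called 0 genes in SCI+FIPI against SCI mice. At an unadjusted p under 0.05 there were 4 of 12 genes for chain synthesis, 5 of 13 for sulfation, 6 of 9 for lysosomal breakdown, 2 of 7 for the proteases and 1 of 10 for the receptors, beside 25.2% of all genes tested. DESeq2 called 1 gene of lysosomal breakdown and 0 of the other 4 lists, and limma-voom called 0 of all 5. The medians were -0.02, -0.13, -0.28, -0.24 and 0.03 in the same order. The 4 further link proteins and tenascins had 0 genes called by each of these tools and 0 at an unadjusted p under 0.05.

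For each member the genes with the most similar profile were those with the smallest root mean square difference of log2 CPM over the 9 mice, each gene centred on its mean. Hapln4 was nearest to Scrt1 (0.0491), a neuronal repressor, and Panx2 (0.0576), a pannexin of the nervous system. Hapln1 was nearest to Hecw1 (0.0898) and Olfm3 (0.133), and Bcan to Uchl1 (0.0385), the abundant neuronal ubiquitin hydrolase, and Enho (0.0413). Vcan was nearest to Rnh1 (0.0661) and Incenp (0.0803), Tnc to Tubb6 (0.123) and Dap (0.124), and Ncan was close to Xrcc4 (0.0746). Ptprz1 was nearest to Stxbp5 and Abr, Cspg5 to Tubg1 and Aamdc, Tnr to Atg12 and Snx29, and Acan to Glis1 and Slc12a3, at 0.0399 to 0.101. All genes share the 9 libraries, and the likeness is a description.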

How the data were processed

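Spinal cord mRNA was enriched with oligo(dT) beads and primed at random, with a buffer that marks the second strand. According to the study, the authors removed low-quality and adapter sequence. They deposited raw counts, whole numbers per gene with no normalization, for 52550 genes in 9 mice, and the submitters' processing notes name GRCm38 and R 4.2.3. The aligner, the counting program and its strand setting are not given in the sources used here.

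All 9 columns were used. Symbols, positions and exonic lengths came from GENCODE M21 (GRCm38, 52403 identifiers matched) and promoters from RefSeq. In R 4.3.3, edgeR 4.0.16 was run with TMM factors, filterByExpr (18699 genes kept), 1 mean per group over 9 mice and robust quasi-likelihood tests with Benjamini-Hochberg adjustment. Dispersion over all genes was 0.00866 (coefficient of variation between mice 9.3%), with 6 residual degrees of freedom. The limits are those of the study. CPM used these factors, and FPKM is CPM per 1000 exonic bases, all splice forms merged. For ratios and shares within a mouse, a two-sided exact permutation test over mice was used. SE is that of the edgeR fit. Sequence shared with other genes was at most 2.86% of the 50-base stretches of a member (Tnr).

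The members and lists were chosen with earlier results of these data known. Named are the members, up to 3 called genes of largest fold change per list and comparison, and the 2 nearest profiles per member, except that some items under this rule are not reported here. Hapln2, Hapln3, Has3, Adamts4, Adamts5, Adamts20, Ptprs, Ptprf, Otx2, Col2a1, Matn1, Col10a1, Gfap, Slc1a2, Aldoc and Fgfr3 were named outside this rule. Alternatives were RLE factors, other filters, the replicate number as a block, GC content and length offsets, fewer groups, DESeq2 1.42.0, limma-voom (limma 3.58.1), no fold limit, and each mouse left out. The steps were tested on simulated data. Replicate numbers recur across groups but name separate animals. Deviations of such mice correlated by -0.073 to 0.108, and the numbers were not taken as pairs. Nothing says that mice were pooled.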

Additional observations from a re-analysis of the deposited data

How the results depend on the processing

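Of 718 values recomputed under the alternatives, 688 were rated the same, and 0 turned a called direction. The fold change of a member was rated the same when its side of the limits was kept, whatever its size. For the fold changes of the members alone 525 of 540 were rated the same. The sign of the fold change differed in 7 of the 540, all for Acan or Tnr, which were not called in any of them. These 7 are among those rated the same. With GC content and length offsets, SCI against Sham mice had 5 members called, of which 4 were in common with the 6, because Bcan passed both limits and Ncan and Ptprz1 did not. These offsets moved the median log2 fold change of all genes to -0.135 for SCI against Sham and to -0.143 for SCI+FIPI against Sham, and -0.012 for SCI+FIPI against SCI. The split of calls in SCI+FIPI against Sham moved with them from 3957 higher and 3171 lower to 3138 higher and 4370 lower. In SCI against Sham the split was 4571 and 4209 without and 3814 and 5223 with the offsets.

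With no limit on the fold change, 4 members and 1800 genes were called in SCI+FIPI against SCI, and 7 members and 11060 genes in SCI+FIPI against Sham. Leaving out one mouse at a time gave 0 to 2 members and 189 to 1038 genes in SCI+FIPI against SCI. The lowest of these counts of genes came without SCI+FIPI mouse 2 and the highest without SCI mouse 1, with 341 without SCI mouse 2 and 240 without SCI mouse 3, so that the background of 3.06% is itself loose. Ptprz1 passed both limits in SCI+FIPI against Sham without SCI+FIPI mouse 1 (-0.51). With the replicate number as a block, 6, 2 and 4 members were called in the 3 comparisons, as without it, beside 8744, 555 and 7115 genes, and it changed no call of a member. Leaving the most abundant gene out of each marker sum, chosen after seeing the data, moved 4 of 16 ratios, all of them to astrocyte markers without Gfap. On the log2 scale, Ncan went from 0.11 to 0.945, Bcan from -0.99 to -0.16 and Tnc from 2.00 to 2.83 for SCI against Sham, and Bcan from 0.27 to 0.13 for SCI+FIPI against SCI. The causes of the other changes were not tested. Hapln1, with 80 to 85 reads in SCI mice, is the member that depth limits most.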
